A study of Mus musculus with 12 samples.

Results

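The 9 genes described here encode major heat shock protein chaperones of the cytosol and the mitochondrion. They are Hspa8, Hspa9, Dnaja1, Hspa4, Hsph1, Hsp90aa1, Hsp90ab1, Hspd1 and Hspe1. They were chosen by name, with earlier results of these data known. All 9 were found, by Entrez ID, among the 9842 genes of the deposited expression table. Molecular chaperones bind proteins that are not yet folded or have lost their fold, and they use cycles of ATP binding and hydrolysis to let them fold again. HSP70 proteins hold short exposed segments of a client, J-domain proteins deliver clients and trigger hydrolysis, and nucleotide exchange factors release them; HSP90 takes over kinases, receptors and other clients that are nearly folded, and the mitochondrial chaperonin encloses imported proteins in a chamber. Several of these genes are induced by heat shock factor 1 under stress, but the constitutive members are made in all growing cells, and lymphocytes that are activated and enlarge are known to raise many of them.

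The study asked how loss of LSD1 changes gene expression in B cells. LSD1, the product of Kdm1a, is a histone demethylase that removes methyl groups from lysine 4 of histone H3. RNA was sequenced from 12 libraries of female C57BL/6J mouse spleen B cells, 3 in each of 4 groups. Marginal zone B cells made in culture from LSD1-knockout mice (eMZB_KO) and from wild-type mice (eMZB_WT) came from splenic transitional B cells kept for 3 days with BAFF, a B cell survival factor, and DL1, a Notch ligand, and were sorted as B220+ CD1d+ CD21+. Transitional B cells, which have newly left the bone marrow, were sorted directly from spleens of knockout (TrB_KO) and wild-type (TrB_WT) mice as B220+ CD93+, without stimulation; both sorts left out Thy1.1+, F4/80+ and CD11b+ cells. The sources used here give neither the age of the mice nor the way the Kdm1a allele was deleted. Each library was made from 2000 cells, and the labels do not say that replicates came from separate mice, so p-values measure the spread of these libraries only, which could be technical. The cell type comparison joins a difference in stage with a difference in culture and stimulation, and these cannot be told apart.

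Levels are FPKM, reads scaled to gene length and to the read total, divided by a median-of-ratios factor per library ("scaled FPKM"). The scaling was used because the listed genes held 16.7 to 20.9% of reads in 5 TrB libraries, 61.6% in TrB_KO replicate 3 and 27.8 to 41.7% in the eMZB libraries. Between 7.24 and 19.35 M reads lie behind each library (M, mega), and the 9 genes were covered by 88 reads (Hspe1 in TrB_WT replicate 1) to 8215 reads (Hsp90ab1 in eMZB_WT replicate 3). Scaled FPKM of Kdm1a was 2.65, 2.53 and 2.66 in eMZB_KO, against 7.53, 8.63 and 4.68 in eMZB_WT, and 3.35, 2.56 and 2.99 in TrB_KO, against 8.54, 7.93 and 3.47 in TrB_WT. The libraries labelled eMZB_WT replicate 3 and TrB_WT replicate 3 therefore lay near the knockout range; they were kept under their labels, and counts over lists and calls that changed are also given without them. The cell type labels were met by Cr2 (CD21), at 63.4 to 65.9 scaled FPKM in eMZB_KO and 60.9 to 70.7 in eMZB_WT, against 11.8 to 15.3 in TrB_KO and 7.79 to 10.02 in TrB_WT, and by Cd93, at 0.697 to 1.10 over the eMZB libraries, against 4.17 to 6.05 over the TrB libraries. Within TrB the genotypes differed in Cr2, which was higher in TrB_KO than TrB_WT (log2 difference 0.55, SE 0.11, adjusted p = 0.047 by limma). Without the scaling that difference was not called. Cd1d1 did not separate the cell types in wild type (log2 difference 0.04, SE 0.09, adjusted p = 0.796 by limma), and was higher in eMZB_KO than TrB_KO (0.28, SE 0.09, adjusted p = 0.043). Of the marker genes of other cells, none of the neutrophil, NK cell, platelet or stromal lists was among the listed genes, and 1 of 5 T cell, 3 of 5 macrophage, 1 of 4 dendritic cell and 1 of 3 erythroid markers were.

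Promoter letters are shown first for the chaperonin pair, because both genes start from the same short stretch in opposite directions, and then for 3 further members that have an entry in the RefSeq promoter table (GRCm38.p6). Heat shock factors are known to bind inverted repeats of GAA, so each window from 250 bases before to 50 after a start was searched on both strands for a pair of units, GAANNTTC or TTCNNGAA, and for 3 units, GAANNTTCNNGAA or TTCNNGAANNTTC, with overlapping matches counted. Capitals mark a pair of units. The 215 bases between the start of Hspe1 and the annotated start of Hspd1 that lies head to head with it (chr1:55087933-55088147) are given on the Hspe1 strand (+):
Hspe1 and Hspd1: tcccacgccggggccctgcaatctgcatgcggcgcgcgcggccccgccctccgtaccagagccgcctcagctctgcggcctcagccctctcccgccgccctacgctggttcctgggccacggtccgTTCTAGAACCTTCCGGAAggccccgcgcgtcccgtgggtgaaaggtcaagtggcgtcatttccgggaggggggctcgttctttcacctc
The capitals hold 3 overlapping pairs, TTCTAGAA, GAACCTTC and TTCCGGAA, which begin 89, 84 and 79 bases before the Hspe1 start and together make 2 overlapping matches of 3 units. The 250 bases before the start of Hsph1 (chr5:149636337-149636586, minus strand), of Dnaja1 (chr4:40722218-40722467, plus strand) and of Hspa4 (chr11:53300480-53300729, minus strand) are set beside it because they differ in the number of matches:
Hsph1: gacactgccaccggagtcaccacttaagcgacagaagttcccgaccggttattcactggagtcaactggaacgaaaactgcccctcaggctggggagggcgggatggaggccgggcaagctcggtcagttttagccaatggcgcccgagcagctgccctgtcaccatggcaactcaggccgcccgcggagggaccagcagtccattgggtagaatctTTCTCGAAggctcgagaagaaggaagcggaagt
Dnaja1: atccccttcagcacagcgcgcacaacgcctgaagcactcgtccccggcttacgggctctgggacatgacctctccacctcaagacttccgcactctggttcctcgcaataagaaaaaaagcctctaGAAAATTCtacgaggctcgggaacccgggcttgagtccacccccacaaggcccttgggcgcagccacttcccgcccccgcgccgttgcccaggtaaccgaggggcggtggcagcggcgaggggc
Hspa4: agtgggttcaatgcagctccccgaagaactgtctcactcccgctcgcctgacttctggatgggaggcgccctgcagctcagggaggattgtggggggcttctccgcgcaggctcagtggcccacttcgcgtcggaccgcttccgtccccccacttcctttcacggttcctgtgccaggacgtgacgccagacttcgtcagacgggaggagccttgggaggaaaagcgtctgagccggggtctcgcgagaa
For Hsph1 the start used was 149636336, with a pair of units 33 bases before it. A match of 3 units lies 36 bases after it, beyond the stretch shown. A further start of Hsph1 in the promoter table, at 149636315, has the same matches in its window. The annotated gene reaches 149636498, upstream of both starts, so part of the Hsph1 stretch shown lies inside the gene. Dnaja1 has 1 pair, 124 bases before its start, and Hspa4 has none in its window. A further annotated start of Hspd1, inside Hspe1, and 2 further starts of Dnaja1 had no match to the heat shock element letters in their windows. A pair of units occurred in 15.06% of all 32851 promoter windows of the table and a match of 3 units in 0.6027%. The windows of Hspa8, Hsp90aa1, Hsp90ab1 and Hspa9 were not analysed here. A match describes these letters and is not evidence of binding.

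All 9 genes were higher in cultured marginal zone B cells than in transitional B cells, with or without LSD1. Between wild-type cells the log2 difference ran from 0.45 (Hspa4) to 1.30 (Hspa8), with a median of 0.79 against -0.00 over all 9842 genes. Between knockout cells it ran from 0.49 (Hspa4) to 1.21 (Hspa9), with a median of 1.04 against -0.01 over all genes. Each of the 9 had an adjusted p under 0.05 (limma on log2 of scaled FPKM plus 1, 12 libraries, Benjamini-Hochberg over all 9842 genes) in both comparisons, where 14.6% of all genes were called higher in eMZB_WT than TrB_WT and 14.2% in eMZB_KO than TrB_KO. For each of the 9, all 3 eMZB libraries also lay above all 3 TrB libraries in both genotypes, an arrangement found for 21.8% of all genes in wild type and 22.7% in knockout. Because the 9 genes were chosen with earlier results of these data known, these counts are not an independent test. In bulk RNA, more RNA per cell and more cells with a high level cannot be told apart.

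**Figure D1:**
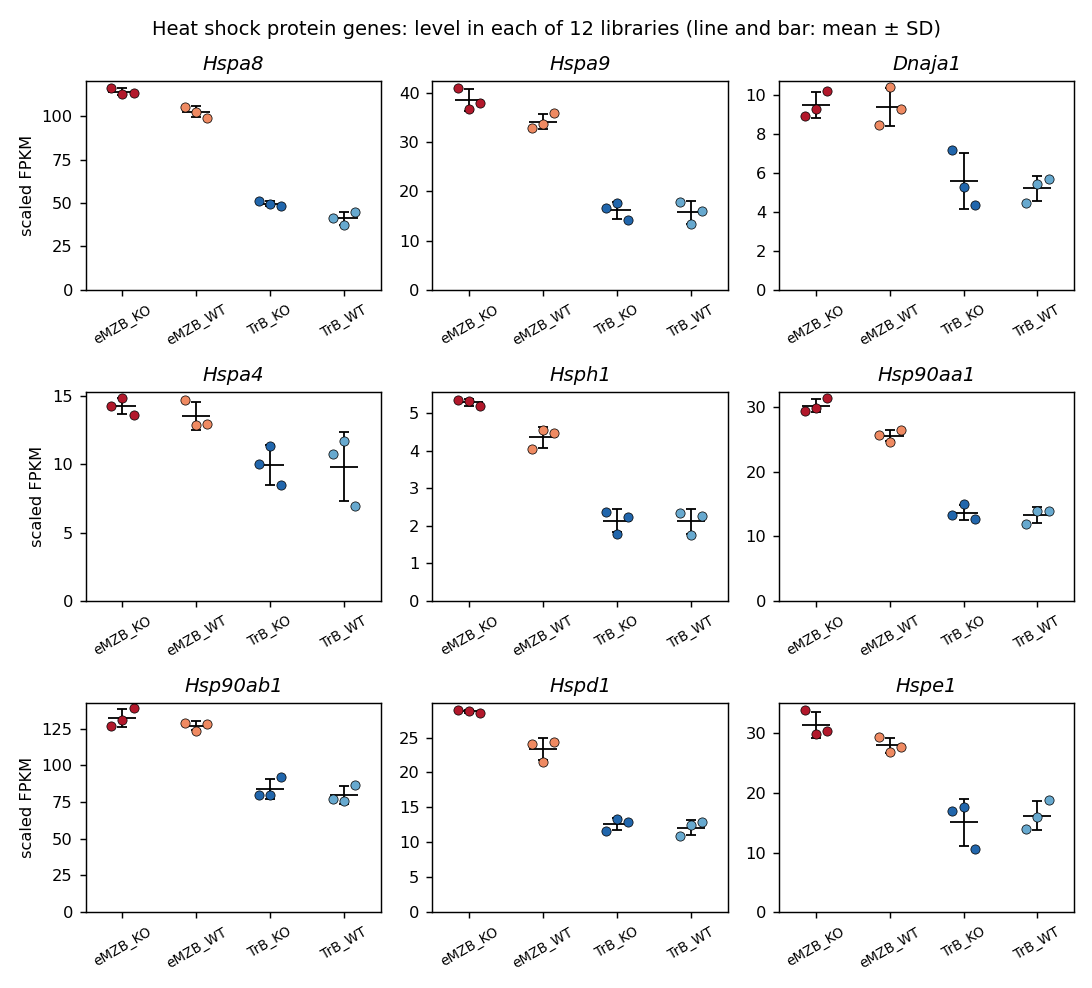
Level of each of the 9 heat shock protein genes in each library, in scaled FPKM on a linear axis that starts at 0; points are the 3 libraries of a group, and the line and bar give mean ± SD. In every panel the eMZB_KO and eMZB_WT points lie above the TrB_KO and TrB_WT points; Hspa4 has the narrowest gap, from 12.9 scaled FPKM in the lowest eMZB_WT library to 11.7 in the highest TrB_WT library.

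Hspa8 (Entrez 15481, chromosome 9, 40801276 to 40805202 in GRCm38, the build of all positions) encodes HSC70, the constitutive cytosolic HSP70, which also strips clathrin from vesicles and takes part in chaperone-mediated autophagy. It was at 116, 113 and 113 scaled FPKM in eMZB_KO, 106, 103 and 99.2 in eMZB_WT, 51.4, 49.3 and 48.3 in TrB_KO, and 41.2, 37.2 and 45.0 in TrB_WT. Libraries of a group lay close together, and no 2 groups overlapped, in the order eMZB_KO, eMZB_WT, TrB_KO, TrB_WT. The log2 difference between cell types was 1.30 in wild type (SE 0.08, adjusted p = 2.5e-07 by limma), a 2.46-fold difference, and 1.18 in knockout (SE 0.08, adjusted p = 6.2e-07), or 2.27-fold.

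Hspa9 (Entrez 15526, chromosome 18, 34937414 to 34954351) encodes mortalin, the HSP70 of the mitochondrial matrix, which also pulls proteins through the import channel. Its scaled FPKM was 40.9, 36.6 and 37.8 in eMZB_KO and 32.9, 33.7 and 35.8 in eMZB_WT. It was 16.6, 17.6 and 14.2 in TrB_KO and 17.9, 13.3 and 15.96 in TrB_WT. The eMZB libraries stood well apart from the TrB libraries, in which both genotypes covered the same range. The log2 difference was 1.08 in wild type (SE 0.11, adjusted p = 1.5e-05 by limma) and 1.21 in knockout (SE 0.11, adjusted p = 6.5e-06). The ratio of Hspa9 to Hspa8 in FPKM, mitochondrial to cytosolic HSP70, averaged 0.337 in eMZB_KO, 0.333 in eMZB_WT, 0.325 in TrB_KO and 0.382 in TrB_WT, with libraries of the cell types overlapping in both genotypes.

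Dnaja1 (Entrez 15502, chromosome 4, 40722468 to 40734965) encodes a cytosolic J-domain partner of HSC70. It had 8.92, 9.27 and 10.2 scaled FPKM in eMZB_KO and 8.46, 10.4 and 9.25 in eMZB_WT, against 7.18, 5.26 and 4.35 in TrB_KO and 4.47, 5.45 and 5.70 in TrB_WT. TrB_KO replicate 1 came closest to the eMZB range without reaching it. The log2 difference between cell types was 0.74 in wild type (SE 0.15, adjusted p = 0.0025 by limma) and 0.69 in knockout (SE 0.15, adjusted p = 0.0040). Measured against Hspa8, Dnaja1 FPKM averaged 0.092 in eMZB_WT and 0.127 in TrB_WT, with no overlap between these groups, and 0.083 in eMZB_KO and 0.112 in TrB_KO, with overlap.

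Hspa4 (Entrez 15525, chromosome 11, 53259814 to 53300479) and Hsph1 (Entrez 15505, chromosome 5, 149616843 to 149636498) encode HSP110 proteins, large relatives of HSP70 that act as its nucleotide exchange factors. Hspa4 had the smallest cell type difference of the 9 genes in both genotypes. Its scaled FPKM was 14.3, 14.9 and 13.7 in eMZB_KO and 14.7, 12.9 and 13.0 in eMZB_WT, against 10.01, 11.4 and 8.51 in TrB_KO and 10.8, 11.7 and 6.98 in TrB_WT. The lowest TrB value belonged to TrB_WT replicate 3, 1 of the 2 wild-type libraries with low Kdm1a. The log2 difference was 0.45 in wild type (SE 0.16, adjusted p = 0.048 by limma) and 0.49 in knockout (SE 0.16, adjusted p = 0.035), both close to the threshold.

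These calls of Hspa4 did not hold in every fit that left out a single library. In wild type the call held in 3 of 12 such fits, those without TrB_KO replicate 2, TrB_KO replicate 3 or TrB_WT replicate 2; without TrB_WT replicate 3 the difference was 0.24 (adjusted p = 0.136 by limma), and without eMZB_WT replicate 1 it was 0.39 (adjusted p = 0.151). In knockout it held in 7 of 12 fits and was lost without TrB_KO replicate 1 (adjusted p = 0.068), TrB_KO replicate 3 (0.101) or eMZB_KO replicate 1 (0.088), 2 (0.103) or 3 (0.069). The other 8 genes were called in all 12 such fits in both genotypes.

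Hsph1, the lowest member in scaled FPKM, had 5.35, 5.32 and 5.19 in eMZB_KO, 4.04, 4.56 and 4.48 in eMZB_WT, 2.38, 1.79 and 2.23 in TrB_KO and 2.35, 1.75 and 2.26 in TrB_WT. The TrB groups nearly coincided, and the eMZB groups lay above them. Its log2 difference was 0.79 in wild type (SE 0.11, adjusted p = 0.00027 by limma) and 1.01 in knockout (SE 0.11, adjusted p = 3.7e-05).

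Hsp90ab1 (Entrez 15516, chromosome 17, 45567778 to 45573261) and Hsp90aa1 (Entrez 15519, chromosome 12, 110691036 to 110696395) encode the cytosolic HSP90 proteins, HSP90-beta, the more constitutive form, and HSP90-alpha, the more inducible one. Hsp90ab1 had the highest scaled FPKM of the 9 genes in every group. Its scaled FPKM was 127, 131 and 139 in eMZB_KO, 129, 124 and 128 in eMZB_WT, 79.9, 80.1 and 91.8 in TrB_KO and 77.0, 75.4 and 86.5 in TrB_WT. Knockout and wild-type libraries overlapped within each cell type. The log2 difference between cell types was 0.67 in wild type (SE 0.08, adjusted p = 6.7e-05 by limma) and 0.65 in knockout (SE 0.08, adjusted p = 8.4e-05), the second smallest in both.

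Hsp90aa1 had 29.4, 29.9 and 31.4 scaled FPKM in eMZB_KO, 25.7, 24.7 and 26.4 in eMZB_WT, 13.4, 14.997 and 12.7 in TrB_KO and 11.9, 13.9 and 14.0 in TrB_WT. Within eMZB the knockout libraries lay above the wild-type ones, and within TrB they overlapped. The log2 difference between cell types was 0.90 in wild type (SE 0.09, adjusted p = 1.1e-05 by limma) and 1.09 in knockout (SE 0.09, adjusted p = 2.6e-06).

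Hspd1 (Entrez 15510, chromosome 1, 55077833 to 55088243) and Hspe1 (Entrez 15528, chromosome 1, 55088148 to 55091317) encode the subunits of the mitochondrial chaperonin, the HSP60 chamber and its HSP10 lid, from the shared start region printed above. Hspd1 had 29.0, 28.8 and 28.6 scaled FPKM in eMZB_KO, 24.1, 21.5 and 24.4 in eMZB_WT, 11.7, 13.3 and 12.9 in TrB_KO and 10.8, 12.4 and 12.9 in TrB_WT. The 3 eMZB_KO libraries lay close together and above all others. The log2 difference between cell types was 0.90 in wild type (SE 0.09, adjusted p = 1.1e-05 by limma) and 1.13 in knockout (SE 0.09, adjusted p = 2.1e-06).

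Hspe1 had 33.9, 29.9 and 30.4 scaled FPKM in eMZB_KO, 29.4, 26.8 and 27.8 in eMZB_WT, 17.0, 17.7 and 10.6 in TrB_KO and 13.9, 15.9 and 18.8 in TrB_WT. TrB_KO replicate 3, the library with the unusual read share, was low for it. The log2 difference between cell types was 0.76 in wild type (SE 0.16, adjusted p = 0.0041 by limma) and 1.04 in knockout (SE 0.16, adjusted p = 0.00051). FPKM divides both subunits by their lengths. On that scale Hspd1 to Hspe1 was 0.855, 0.964 and 0.938 in eMZB_KO and 0.819, 0.803 and 0.877 in eMZB_WT. The ratio was 0.685, 0.750 and 1.22 in TrB_KO and 0.778, 0.778 and 0.687 in TrB_WT. In FPKM the HSP60 gene was thus below the HSP10 gene in 11 of 12 libraries, all but TrB_KO replicate 3. Length division alone does not secure this order. The annotated ends of these genes overlap on opposite strands, and the libraries mark no strand. Pseudogene copies of both are also listed, and the sources used here do not give how shared reads were counted.

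Within a group the order of levels was nearly fixed. In scaled FPKM, Hsp90ab1 was followed by Hspa8, and every library kept them apart from each other and from the rest. At the low end came Hspa4, then Dnaja1, then Hsph1, which did not overlap each other in any group. This order rests on the recovered lengths, which were 5427, 5790 and 6259 bases for these genes, against 768 for Hspe1. Between these ends stood Hspa9, Hspe1, Hsp90aa1 and Hspd1, in this order in eMZB_KO, eMZB_WT and TrB_KO. Neighbours in that middle part were separate in eMZB_WT and overlapped in TrB_KO and TrB_WT, and in eMZB_KO only Hspe1 and Hsp90aa1 overlapped. In TrB_WT, Hspe1 had the highest mean of the 4, and Hspd1 also overlapped Hspa4.

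Because the genes rose by unequal amounts, their proportions differed between cell types. Hspa8 to Hsp90ab1 in FPKM was 0.916, 0.860 and 0.815 in eMZB_KO, 0.818, 0.831 and 0.772 in eMZB_WT, 0.643, 0.615 and 0.527 in TrB_KO and 0.535, 0.493 and 0.520 in TrB_WT. The HSP70 gene thus came closer to the HSP90 gene in cultured marginal zone cells, with no overlap between cell types. Hsp90aa1 to Hsp90ab1 was 0.232, 0.229 and 0.226 in eMZB_KO, 0.199, 0.200 and 0.206 in eMZB_WT, 0.167, 0.187 and 0.139 in TrB_KO and 0.154, 0.185 and 0.162 in TrB_WT. The inducible form had its largest share in eMZB_KO, again with no overlap with eMZB_WT, and eMZB_WT had none with TrB_WT. Such ratios do not depend on the library scale. Over 24 ratio comparisons, a two-sided exact permutation test of 3 against 3 libraries cannot go below p = 0.1, or 0.267 after adjustment, and every ratio without overlap stood at that limit.

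**Figure D2:**
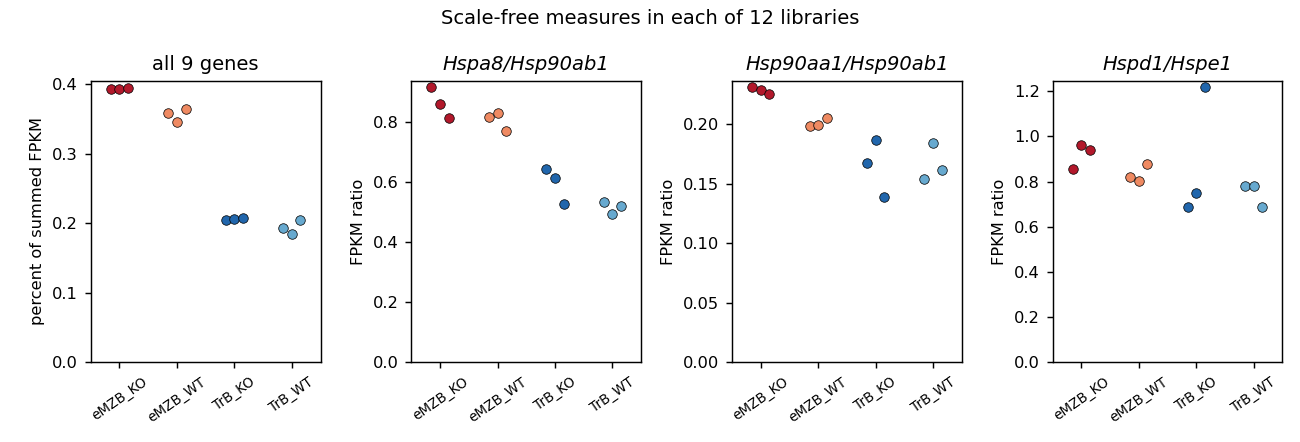
Measures that do not depend on library scaling, in each of 12 libraries (points), on linear axes that start at 0. From the left they are the summed FPKM of the 9 genes as a percent of the summed FPKM of all listed genes, and the FPKM ratios Hspa8 to Hsp90ab1, Hsp90aa1 to Hsp90ab1 and Hspd1 to Hspe1; that share is 0.394% in all eMZB_KO libraries, 0.346 to 0.365% in eMZB_WT, 0.205 to 0.208% in TrB_KO and 0.185 to 0.204% in TrB_WT.

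Of the summed FPKM of the listed genes, the 9 genes took 0.394, 0.394 and 0.394% in eMZB_KO, 0.358, 0.346 and 0.365% in eMZB_WT, 0.205, 0.206 and 0.208% in TrB_KO and 0.192, 0.185 and 0.204% in TrB_WT. The listed genes held unequal parts of all reads, as given above, so this is not a share of all message. Knockout libraries were the higher ones within each cell type, by little in TrB, where TrB_WT replicate 3, with low Kdm1a, came next to the lowest TrB_KO library. TrB_KO replicate 3 did not stand apart in this share, at 0.208%. It did in FPKM as deposited, where the 9 genes summed to 441, against 117 to 162 in the other TrB libraries. No p is given for this share.

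Loss of LSD1 passed the test for none of the 9 genes. In eMZB, 0 of 9 were called, where 0.406% of all genes were, and the log2 difference ran from 0.02 (Dnaja1) to 0.29 (Hspd1) with a median of 0.16. In TrB, 0 of 9 were called, where 0.498% of all genes were, and the log2 difference ran from -0.12 (Hspe1) to 0.27 (Hspa8) with a median of 0.04. At an unadjusted p under 0.05 there were 2 of 9 in eMZB, Hspd1 and Hsp90aa1, against 5.39% of all genes, and 1 of 9 in TrB, Hspa8, against 9.91% of all genes. The same fit did not call Kdm1a, the deleted gene (log2 difference -1.10 in eMZB, adjusted p = 0.148, and -0.87 in TrB, adjusted p = 0.249 by limma). Without the 2 wild-type libraries of low Kdm1a, 0 of 9 genes were called in either cell type, with medians of 0.15 in eMZB and 0.082 in TrB. That fit did call Kdm1a (-1.33 in eMZB, adjusted p = 0.00053, and -1.22 in TrB, adjusted p = 0.00096 by limma). Since the 2 libraries were left out for their Kdm1a level, this call is not an independent test.

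In eMZB all 9 estimates were above 0, and for 6 genes (Hspa8, Hspa9, Hsph1, Hsp90aa1, Hspd1 and Hspe1) every knockout library lay above every wild-type library, which was so for 9.13% of all genes. The estimates stayed small beside the cell type differences. Hspd1 averaged 28.8 ± 0.21 scaled FPKM in eMZB_KO and 23.3 ± 1.55 in eMZB_WT (SD, n = 3 each), a log2 difference of 0.29 (95% interval 0.10 to 0.48, adjusted p = 0.405 by limma). Hsp90aa1 averaged 30.2 ± 0.995 in eMZB_KO and 25.6 ± 0.868 in eMZB_WT, a difference of 0.23 (0.04 to 0.42, adjusted p = 0.733). The intervals of Hspa8 (-0.01 to 0.32), Hsph1 (-0.01 to 0.48), Hspa9 (-0.07 to 0.40) and Hspe1 (-0.19 to 0.51) included 0. So did those of Hsp90ab1 (-0.12 to 0.23), Hspa4 (-0.26 to 0.41) and Dnaja1 (-0.30 to 0.33), the genes whose libraries overlapped.

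In TrB, Hspa8 was the one gene with no overlap between genotypes, which was so in this direction for 6.14% of all genes. It averaged 49.7 ± 1.54 scaled FPKM in TrB_KO and 41.1 ± 3.90 in TrB_WT (SD, n = 3 each), a log2 difference of 0.27 (95% interval 0.11 to 0.44, adjusted p = 0.222 by limma). Its adjusted p was 0.076 to 0.425 when each library was left out in turn. The other 8 estimates lay between -0.12 and 0.07, with the widest interval for Hspe1 (-0.47 to 0.23). Their signs are not given as directions, because upper-quartile scaling turned 4 of them and leaving out single libraries turned 7.

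The response to LSD1 loss was not shown to differ between cell types for any of the 9 genes. The interaction, the eMZB difference minus the TrB difference, ran from -0.12 (Hspa8) to 0.28 (Hspe1), with 0 of 9 called by limma, where 0.0102% of all genes were. At an unadjusted p under 0.05 there were 0 of 9, and 674 of all 9842 genes. Its 95% interval was -0.35 to 0.12 for Hspa8, -0.04 to 0.50 for Hspd1 and -0.22 to 0.78 for Hspe1, so differences up to these bounds were not excluded.

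**Figure D3:**
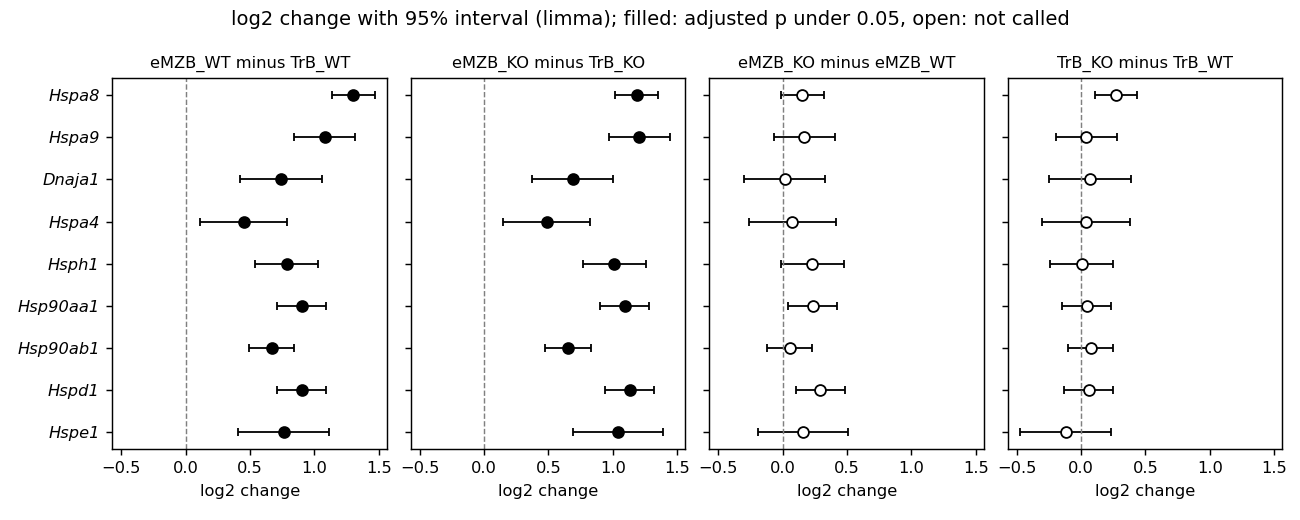
log2 difference of each of the 9 genes in 4 comparisons, with its 95% interval from limma, on a shared linear axis; filled points have an adjusted p under 0.05 and open points do not. All 9 are filled in both cell type comparisons on the left (0.45 to 1.30 in wild type and 0.49 to 1.21 in knockout), and all are open for LSD1 loss in eMZB (0.02 to 0.29) and in TrB (-0.12 to 0.27).

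Genes that work with the 9 were read from fixed lists. Of 22 listed HSP90 co-chaperones, 12 were higher and 0 lower in eMZB_WT than TrB_WT (median 0.35), and 9 were higher and 3 lower in eMZB_KO than TrB_KO (median 0.19). Over all genes, 14.6% were higher and 12.7% lower in the wild-type comparison, and 14.2% and 13.2% in the knockout one. These shares are the background of each list below. Ptges3, which encodes p23, the co-chaperone of the closed HSP90 dimer, was at 26.7, 28.9 and 31.9 scaled FPKM in eMZB_KO and 28.3, 30.3 and 30.1 in eMZB_WT, against 12.6, 10.6 and 11.7 in TrB_KO and 9.02, 8.75 and 6.96 in TrB_WT. Its log2 difference of 1.73 in wild type (SE 0.11, adjusted p = 3.6e-07 by limma) was a larger estimate than that of any of the 9 genes, and in knockout it was 1.26 (SE 0.11, adjusted p = 4.0e-06); differences between genes were not tested. Fkbp4, an immunophilin of steroid receptor complexes, rose by 0.89 in wild type and 0.60 in knockout, and Tomm34, which binds preproteins with HSP70 and HSP90, by 0.80 and 0.77. Stip1, the HOP adaptor that links HSP70 to HSP90, rose by 0.32 and 0.53. Fkbp8, Cdc37l1 and Tsc1 were lower in eMZB_KO than TrB_KO, by 0.38 to 0.43 on the log2 scale; without scaling and without TrB_KO replicate 3, an alternative added after seeing the data, these 3 turned sign. Without the 2 wild-type libraries of low Kdm1a, also added after seeing the data, 8 co-chaperones were higher in wild type, and 10 were higher and 3 lower in knockout.

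Most of the remaining HSP70 partners were not called. Of 12 listed genes of the cytosolic HSP70 system, St13, which encodes the HSC70-interacting protein HIP, was higher in eMZB in wild type (0.52) and knockout (0.35), Hspbap1 was lower (-0.76 and -0.75), and 10 were not called in either genotype. Without the 2 wild-type libraries of low Kdm1a, 1 of the 12 was higher and 1 lower in wild type, and 2 were higher and 1 lower in knockout. Of 32 listed J-domain genes besides Dnaja1, 5 were higher and 1 lower in eMZB_WT than TrB_WT, and 3 were higher and 1 lower in eMZB_KO than TrB_KO. Over all genes, 14.6% were higher and 12.7% lower in wild type, and 14.2% and 13.2% in knockout. Without the 2 wild-type libraries of low Kdm1a, 3 J-domain genes were higher and 1 lower in wild type, and 4 and 2 in knockout. Dnaja2, a close relative of Dnaja1, was among those higher in both (0.72 and 0.52), at 23.3, 22.6 and 23.3 scaled FPKM in eMZB_KO and 23.3, 22.2 and 21.6 in eMZB_WT, against 13.1, 16.8 and 17.8 in TrB_KO and 11.99, 12.5 and 15.3 in TrB_WT. Hence Dnaja2 was above Dnaja1 in every library. Of 17 mitochondrial protein quality control genes, 3 were higher in wild type and 4 in knockout and 0 lower in either (2 and 5 higher without the 2 libraries of low Kdm1a); the nucleotide exchange factor Grpel2 (0.45 and 0.28) and the prohibitin Phb (0.46 and 0.44) were higher in both, and Trap1, the mitochondrial HSP90, in knockout (0.34, against 0.25 and not called in wild type).

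**Figure D4:**
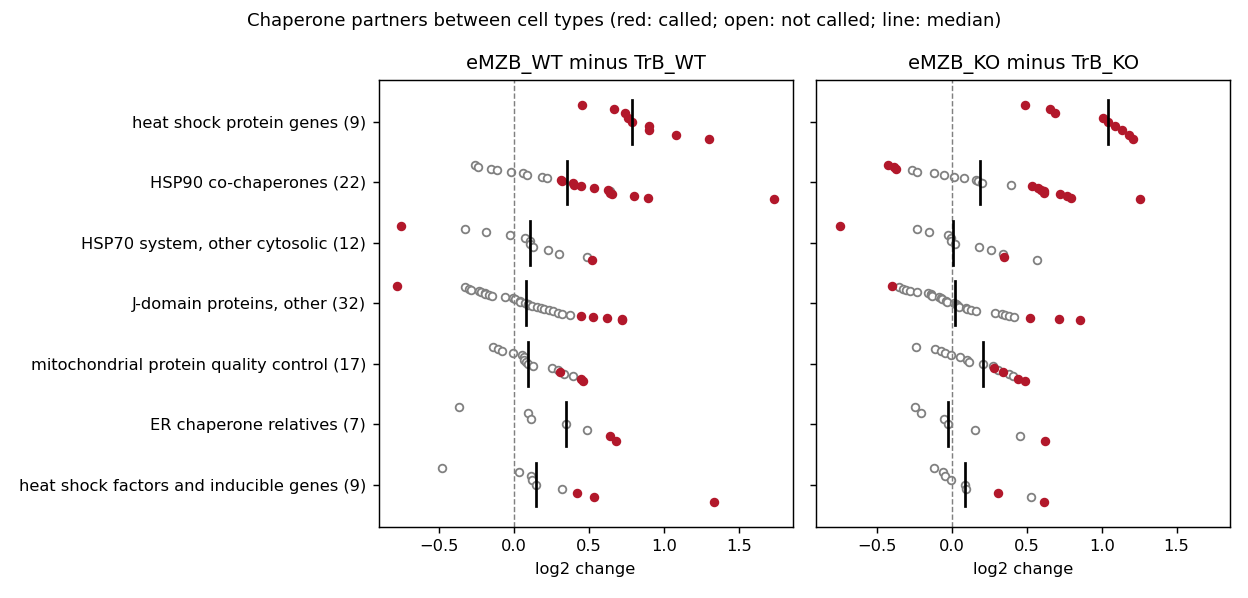
log2 difference between cell types, in wild type (left panel) and knockout (right panel), for the 9 genes and 6 lists of related genes, with the number tested after each name; a point is a gene, filled where its adjusted p is under 0.05, and the vertical line is the median of the list. The 9 genes have medians of 0.79 and 1.04, and the medians of the 6 lists run from 0.08 to 0.35 in wild type and from -0.03 to 0.20 in knockout.

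Classical stress-induced genes were read from a further list, which holds none of the 9 members. Hspa1a, Hspa1b, Hspb1, Bag3, Serpinh1 and Cryab were not among the listed genes, and of the 9 listed genes of the heat shock factor list 3 were higher in eMZB_WT than TrB_WT, or 1 without the 2 libraries of low Kdm1a, and 2 in eMZB_KO than TrB_KO. Those were Chordc1 (0.53 and 0.61), Sqstm1 (0.42 and 0.30) and, in wild type, Hmox1. Over all genes, 14.6% were called higher in wild type and 14.2% in knockout. Hsf1, the heat shock factor itself, was at 9.51 to 10.7 scaled FPKM in eMZB_KO, 10.4 to 11.7 in eMZB_WT, 9.67 to 12.8 in TrB_KO and 9.94 to 11.4 in TrB_WT, with log2 differences of 0.03 and -0.12 between cell types that were not called (adjusted p = 0.838 and 0.443 by limma). Dnajb1, the J-domain gene best known for heat induction, differed by 0.32 in wild type (adjusted p = 0.052) and 0.09 in knockout (adjusted p = 0.598). Of 2 listed small heat shock protein genes, 0 were called in either.

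Of 7 relatives in the endoplasmic reticulum, Hspa5, the HSP70 of that compartment (BiP), was higher in eMZB in wild type (0.64) and knockout (0.62), and Dnajb9 in wild type (0.68), where 1 of the 7 was called without the 2 libraries of low Kdm1a. Hsp90b1, the HSP90 of that compartment (GRP94), was at 67.7, 71.1 and 75.04 scaled FPKM in eMZB_KO and 63.1, 71.1 and 73.5 in eMZB_WT, against 69.3, 69.7 and 83.2 in TrB_KO and 60.2, 59.2 and 75.9 in TrB_WT. Its levels overlapped across all 4 groups, and its difference was not called (0.09 and -0.05, adjusted p = 0.560 and 0.775 by limma). None of these 7 lists held a gene called for LSD1 loss in eMZB or TrB or in the interaction.

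Markers of other cells and of cell handling were read beside the cell type difference. The summed scaled FPKM of the 3 listed macrophage markers was 4.25 to 5.45 in eMZB_KO and 2.48 to 3.36 in eMZB_WT, against 4.31 to 5.12 in TrB_KO and 5.05 to 6.55 in TrB_WT. Its parts moved differently. Itgam was 0.991 to 1.25 in eMZB_KO and 0.180 to 0.376 in eMZB_WT, and 1.20 to 1.96 in TrB_KO and 0.777 to 1.02 in TrB_WT. Adgre1 was lower in TrB_KO (0.976 to 1.61) than in TrB_WT (2.05 to 2.43) and overlapped between genotypes in eMZB, and Cd68 overlapped in both cell types. Scaled FPKM of the T cell marker Lck was 7.57 to 8.51 and 6.13 to 6.75 in the eMZB groups, against 6.06 to 7.19 and 4.36 to 7.59 in the TrB groups, with Cd3e, Cd3d, Cd3g and Thy1 not listed. The single listed dendritic cell marker, Flt3, was at 4.52 to 5.67 in eMZB_KO and 0.675 to 1.06 in eMZB_WT, against 0.402 to 0.469 in TrB_KO and 0.721 to 0.864 in TrB_WT. Flt3 was called higher with LSD1 loss in eMZB (1.76), between knockout cell types (2.10) and in the interaction (2.06). In the interaction it was the 1 gene called of all 9842. It was not called for LSD1 loss in TrB (-0.31). The 4 plasma cell markers summed to 14.1 to 17.97 in eMZB_KO and 22.7 to 31.4 in eMZB_WT, against 29.5 to 73.6 in TrB_KO and 13.8 to 39.6 in TrB_WT. Of these 4, 1 was called higher and 0 lower in eMZB_WT than TrB_WT, and 0 higher and 2 lower in eMZB_KO than TrB_KO. The erythroid marker Hbb-bs was at most 2.60 in any library. The B cell markers Cd79a, Cd79b, Ms4a1 and Pax5 were lower in eMZB than TrB in both genotypes, but none was called as deposited, where Ms4a1 and Pax5 turned sign in wild type. Ptprc, on the same list, was not lower. Its log2 difference was 0.12 in wild type (adjusted p = 0.407 by limma) and 0.0008 in knockout (adjusted p = 0.997). Of 14 listed immediate early genes, which respond within minutes to stimulation or handling, 4 were higher and 6 lower in eMZB_WT than TrB_WT (2 and 6 without the 2 libraries of low Kdm1a). Between eMZB_KO and TrB_KO, 4 were higher and 5 lower in eMZB_KO (4 and 6 without those 2 libraries). Btg2 was also lower with LSD1 loss in eMZB (-0.69) and in TrB (-0.46). The TrB call was lost without the 2 libraries of low Kdm1a (adjusted p = 0.082 by limma), and as deposited neither was called and the TrB estimate was 0.16. As deposited, 4 immediate early genes were higher and 0 lower in wild type, where Btg2, Junb, Zfp36 and Klf6 turned sign, and 1 was higher and 0 lower in knockout. The part of any of these in the heat shock protein levels was not tested.

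The genes most like the 9 in pattern were found over the 4407 genes with a mean of at least 5 scaled FPKM. Likeness was Pearson's r, over 12 libraries, of log2 scaled FPKM plus 1 with the mean standardised profile of the 9 genes; since the libraries fall into 2 cell types, r mainly ranks how cleanly a gene separates them, and it is given without a p. Cdk4, the cyclin-dependent kinase of G1 phase, had the highest (r = 0.994), at 47.8 ± 1.46 scaled FPKM in eMZB_KO, 43.9 ± 0.399 in eMZB_WT, 27.1 ± 1.47 in TrB_KO and 26.4 ± 2.17 in TrB_WT (SD, n = 3 each). It was followed by Npm1, the nucleolar histone chaperone nucleophosmin (0.992), Bcl2a1b, of a group of near-identical anti-apoptotic genes among which reads could be split (0.990), Rps2, of the small ribosomal subunit (0.990), and Lax1, a transmembrane adaptor of lymphocytes (0.990). The most opposite were Serinc5 (-0.996), Add1 (-0.992) and Niban3 (-0.992), of which Niban3 had 19.1 ± 1.46 and 21.4 ± 1.02 scaled FPKM in eMZB_KO and eMZB_WT and 102 ± 12.6 and 119 ± 21.1 in TrB_KO and TrB_WT.

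The scale of the libraries bore on the knockout cell type comparison. As deposited, without further scaling, the median log2 difference of all genes was 0.67 between wild-type cell types, 0.23 between knockout ones, 0.52 for LSD1 loss in TrB and 0.06 in eMZB, and calls between cell types were 93.8% and 84.1% higher, against 53.5% and 51.9% with scaling. On that scale 9 of 9 genes were called in wild type (background 18.1%) and 3 of 9 in knockout, Hspa8, Hspa9 and Hsph1 (background 3.93%), and all 9 estimates lay above the median of all genes in both. Without TrB_KO replicate 3 the deposited scale gave 9 of 9 in knockout, where 66% of all genes were called higher. Over the lists, the deposited scale gave 9 HSP90 co-chaperones higher in wild type and 2 in knockout, 5 and 1 J-domain genes, and 3 and 0 mitochondrial quality control genes, with 0 lower in any of them. Some reads may also be shared with processed pseudogenes: GENCODE M21 lists 12 pseudogene copies of Hspa8, 5 of Hspd1, 4 of Hsp90aa1, 3 each of Hspe1 and Dnaja1, 2 of Hsp90ab1, 1 of Hspa9 and 0 of Hsph1 and Hspa4 at 90% identity or more over at least 300 bases, and the sources used here do not give how such reads were counted.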

How the data were processed

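RNA from 12 libraries of 2000 sorted B cells each was made into cDNA with SMART-Seq v4 and libraries with Nextera XT, which marks no strand, per the labels' protocols. STAR and mm10 are named in the submitters' processing notes; no source used here gives versions, the counting program or the annotation. The authors deposited FPKM for 9842 genes with Entrez IDs, each at 1 FPKM or more in at least 3 libraries; 9833 IDs matched a symbol, and 0 value columns were left unused.

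FPKM was divided by median-of-ratios factors (0.613 to 2.14, over the 9446 genes above 0 in all libraries). limma (3.58.1, R 4.3.3; lmFit, contrasts.fit, eBayes with trend) was fitted to log2 of scaled FPKM plus 1, so changes of low genes are understated, over 12 libraries and 4 group means with 8 residual degrees of freedom. Adjustment was by Benjamini-Hochberg over all 9842 genes, and genes under 0.05 were called at any fold. The fit was tested on simulated data. Members, gene lists, tests and scaling were chosen with earlier results of these data known. Named genes were the 9 members, up to 3 genes per list with the smallest adjusted p in each comparison, Kdm1a, sorting markers, and the 5 most and 3 least alike genes; other list genes named were chosen after their values were seen. The alternatives were no scaling, upper-quartile scaling, a pseudocount of 0.1, a minimum mean of 5 scaled FPKM, fits on the compared groups alone, a replicate block, voom on recovered reads, and leaving out each library.

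Whole reads were recovered from FPKM: for all 9842 genes a length (median 3043.5 bases) made every value whole within 0.02 reads. These PCR reads carry no molecular identifiers, so read numbers bound counting error alone. Replicates differed by more than counting noise, and none was a duplicate. TrB_KO replicate 3 stood furthest from its group, with r = 0.926 to replicate 1 and 0.941 to replicate 2. It had 285 listed genes at 0, where the other libraries had 19 to 65. Labels do not say what replicates of 1 number share. Deviations from the mean of the group correlated by 0.162, 0.106 and 0.292 between same-numbered eMZB_KO and TrB_KO libraries. No other pair of groups was above 0.1 in all 3 numbers, though eMZB_WT and TrB_WT reached 0.273 in number 3. Libraries of different numbers were not compared, so pairing was not tested, and the main fit used none. Sequences and positions are RefSeq's, GRCm38.p6. The rest was done in Python 3.11.15 with scipy 1.17.1, numpy 2.4.6, pandas 2.3.3 and, for figures, matplotlib 3.10.9. One listed gene is not reported here.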

Additional observations from a re-analysis of the deposited data

How the results depend on the processing

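The 9 cell type differences kept their sign in every alternative run, in both genotypes. Beside the losses of Hspa4 given above, the wild-type call of Hspa4 was lost with upper-quartile scaling (adjusted p = 0.087 by limma), a pseudocount of 0.1 (0.055), the compared groups alone (0.089) and without both wild-type libraries of low Kdm1a (0.170), an alternative added after the data were seen. As deposited, 3 members were called between knockout cell types; the other 6 had adjusted p = 0.051 to 0.445. The minimum of 5 scaled FPKM left out Hsph1, so 8 members were tested. Leaving out each library in turn gave 8 to 9 members called in both cell type comparisons and 0 to 0 for LSD1 loss and the interaction. The replicate block, which grouped libraries by their number, changed no call of a member.

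Counts over all genes, which serve as background, moved more. LSD1 loss in TrB gave 49 genes, against 19 as deposited, 31 with the minimum, 9 with the groups alone, 24 with the replicate block, 21 by voom, 17 as deposited without TrB_KO replicate 3 (added after the data were seen), and 26 (without TrB_WT replicate 1) to 54 leaving out each library. LSD1 loss in eMZB gave 40, against 15, 23, 65 and 13 in the first 4 of these, 23 without both libraries of low Kdm1a, and 16 (without eMZB_KO replicate 1 or 3 or eMZB_WT replicate 3) to 52 leaving out each library. The wild-type cell types gave 2693, against 1634 with the minimum, 7459 as deposited without TrB_KO replicate 3, and 1944 to 3407 leaving out each library; the knockout ones gave 2695, against 460 as deposited, 1723, 6688 and 1977 to 3082. The interaction gave 1, against 15 as deposited, 0 with the minimum, 4 as deposited without TrB_KO replicate 3, 2 without both libraries of low Kdm1a, and 1 to 5, the 5 without TrB_WT replicate 3. The minimum tests fewer genes and the left-out fits fewer libraries; other causes were not tested.

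None of the estimates that turned sign was called. For LSD1 loss in TrB, Hspe1 was 0.47 as deposited and 0.18 so without TrB_KO replicate 3; upper-quartile scaling gave -0.013 for Hsp90aa1, -0.035 for Hsph1, -0.016 for Hspa4 and -0.017 for Hspa9; and Hspa4 was -0.17 without both libraries of low Kdm1a. For the interaction as deposited, Hspd1 was -0.28, Hspe1 -0.24, Hsp90aa1 -0.33, Hsph1 -0.15, Hspa4 -0.46 and Hspa9 -0.40; Hsp90ab1 was 0.041 with upper-quartile scaling and 0.030 as deposited without TrB_KO replicate 3, where Hspa4 was -0.066; and Dnaja1 was 0.026 by voom. Leaving out each library, LSD1 loss in TrB gave -0.0070 to 0.11 for Hspd1, -0.25 to 0.10 for Hspe1, -0.029 to 0.091 for Hsp90aa1, -0.082 to 0.089 for Hsph1, -0.17 to 0.17 for Hspa4, -0.066 to 0.13 for Hspa9 and -0.097 to 0.21 for Dnaja1; LSD1 loss in eMZB gave -0.048 to 0.086 for Dnaja1; and the interaction gave -0.077 to 0.048 for Hsp90ab1, -0.096 to 0.24 for Hspa4 and -0.19 to 0.11 for Dnaja1.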
